A study of Drosophila melanogaster with 4 samples.

Results

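Neurotransmitter receptors are the proteins through which a neuron senses the transmitters of other cells. The 37 receptor genes described here are a selection of receptors for acetylcholine, GABA, glutamate, dopamine, serotonin and octopamine, without those for histamine. Other receptors for these transmitters, such as the glutamate receptor subunit Ekar, were not among them. The 37 genes were chosen by symbol from the 13929 genes of the deposited counts table. They comprise 10 nicotinic subunits, 2 muscarinic receptors, 3 GABA-A-like subunits, 3 GABA-B receptors, 5 glutamate-gated channel subunits, 1 metabotropic glutamate receptor, and 4 dopamine, 5 serotonin and 4 octopamine receptors. All 37 were found in the table, and 34 passed edgeR's filter on low counts, which left 7029 genes for testing.

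Nuclear RNA was sequenced from outer photoreceptors (R1 to R6) of male flies at Day 30, collected at ZT 6. Both groups carried rh1-GAL4, UAS-Dcr-2 and UAS-GFP-Msp300KASH in a w[1118], ry[506] background. The siTop3β flies also carried the RNAi line TRiP.JF01282 against Top3β, a topoisomerase, and the siControl flies carried UAS-mCherry-RNAi, directed at a fluorescent protein with no counterpart in the fly genome. GFP-KASH marks the nuclear envelope, and the tagged nuclei were captured from head homogenates, so the RNA is nuclear, each library pools many flies, and only cells with rh1-GAL4 activity are tagged. Each group had 2 libraries. The methods describe independent biological replicates, each a pool of males, for high-throughput experiments in general, and more of them per group than are found here. The labels do not say that these libraries came from separate pools, so p-values measure only the spread between these samples, which may be technical.

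Ionotropic receptors open an ion channel when a transmitter binds. Nicotinic receptors pass cations, and the GABA-gated and glutamate-gated chloride channels pass anions. Metabotropic receptors, which include the muscarinic, GABA-B and amine receptors, act through G proteins on cAMP or calcium. Fly photoreceptors release histamine onto lamina neurons and receive synaptic feedback from the lamina, while acetylcholine is the main fast excitatory transmitter of the fly brain.

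Library totals ran from 3239201 to 4267208 counts, and 3 counts corresponded to 0.697 to 0.871 CPM (counts relative to library size, after TMM scaling). The targeted transcript, Top3β (FBgn0026015), had 70 and 57 counts in siControl and 57 and 71 in the libraries labelled siTop3β, so a lower level of the target was not seen, and each direction below rests on the labels. The 10 photoreceptor markers summed to between 61494 and 70255 CPM, and none was at 0 in any library. The 7 markers of neurons that use other transmitters summed to between 97.2 and 131 CPM, with Tdc2 at 0 counts in 2 libraries, and the 5 glial markers to between 40.1 and 58.9 CPM with none at 0. The siTop3β replicate 1 library stood apart. It had a count on 77.0% of the genes that summed to no more than 3 counts over the remaining libraries. The same measure gave 12.5% to 18.8% for the other libraries, on unlike sets of genes. There were 4185 such genes for siTop3β replicate 1 and 2366 to 2457 for the other libraries. The smaller sets leave out every gene with more than 3 counts in siTop3β replicate 1. The median of the receptor genes, and each named value whose sign turned, are therefore also given without siTop3β replicate 1.

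One receptor gene dominated the set. DopEcR (FBgn0035538, chromosome 3L from 4367649 to 4380387 in dm6), which encodes a G protein-coupled receptor that responds to dopamine and to the steroid ecdysone, held 60.2% of the summed CPM of the 37 genes in siControl. Its level per kb of exon was 240.1 CPM in siControl, 12.5 times that of nAChRalpha4, the next of the 37 genes, with 19.2. Outside the 37, the receptor genes Ekar, pHCl-1 and HisCl1 had 125.8, 67.5 and 31.4 CPM per exonic kb in siControl, all above nAChRalpha4. Against the 13866 genes with an exonic length, DopEcR stood at percentile 99.3 and nAChRalpha4 at 88.3. By level per kb of whole gene span DopEcR was again first of the 37 genes, at 25.7 times the next of them. Rdl (8.29 CPM per exonic kb), nAChRalpha6 (8.10), nAChRbeta1 (7.03), nAChRalpha5 (6.76) and GluClalpha (6.23) followed, and the siControl values of these 5 neighbours overlapped. Of the 37 genes, 6 lay above the median of all tested genes, which was 6.38 CPM per exonic kb, and the lowest was Grd with 0.452. Whether introns were counted is not given in the sources used here, so levels per length depend on the length that is used. The Spearman rho between the orders per exonic and per span kb was 0.773 across the 37 genes, which share these libraries.

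**Figure D1:**
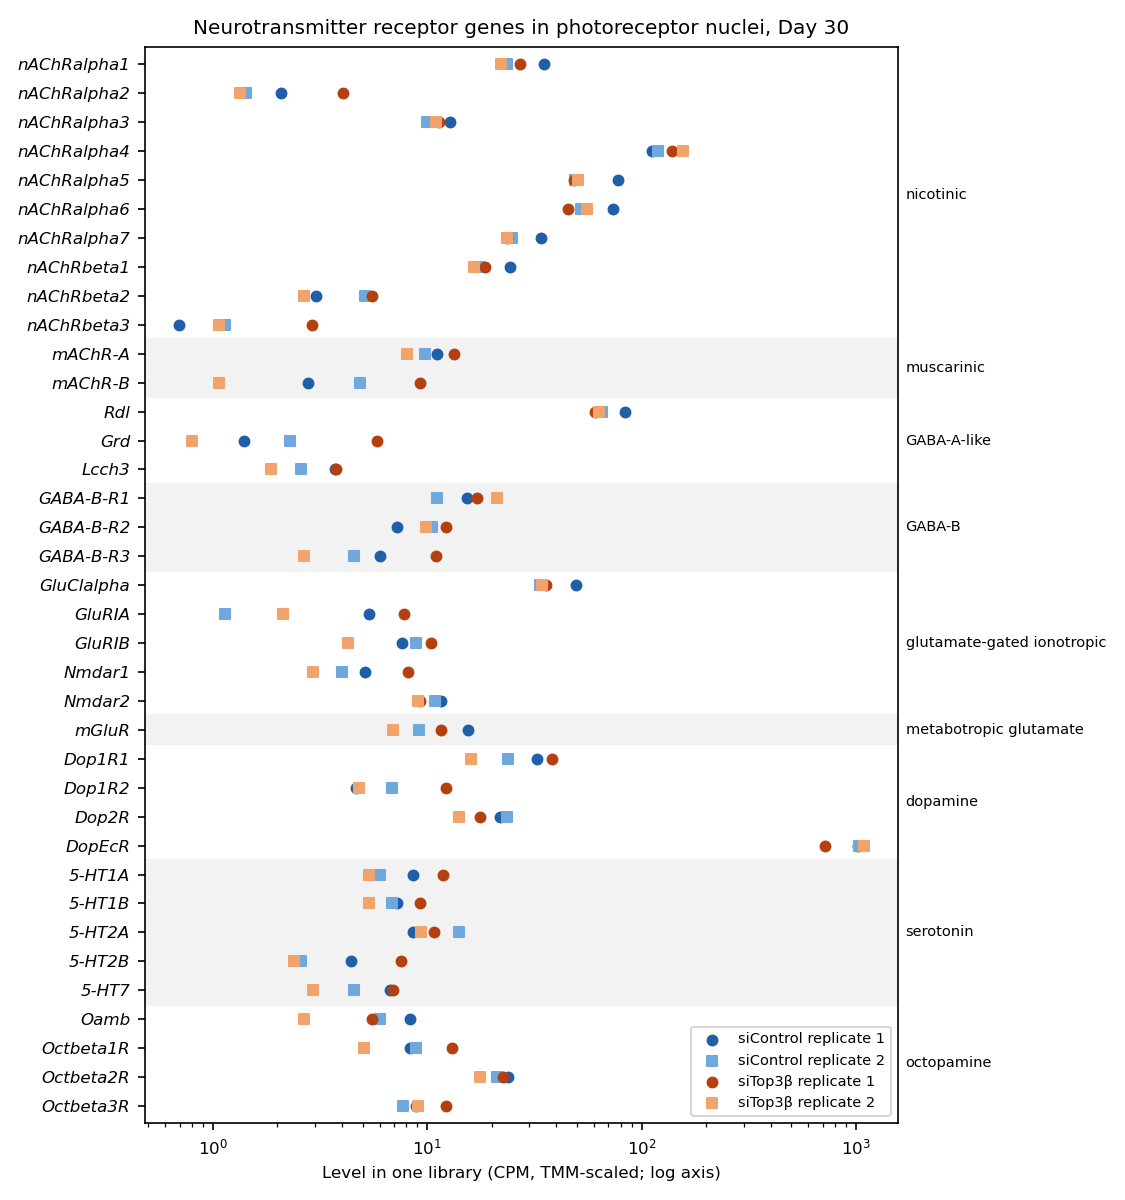
Level of each receptor gene in each of the 4 libraries, in CPM on a log axis, with genes grouped by class. DopEcR lies between 716 and 1088 CPM in the 4 libraries and nAChRalpha4 between 112 and 156, while 19 genes have a siControl mean under 10 CPM.

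None of the 34 receptor genes tested by edgeR passed the threshold of 0.05 on the adjusted p for siTop3β against siControl. The DESeq2 Wald test gave an adjusted p to 19 receptor genes and called none of them. The smallest adjusted p of edgeR was 0.356, for nAChRalpha4. Across all tested genes edgeR called 1.21% (0.825% lower and 0.384% higher), and DESeq2 also called 1.21% of the genes to which it gave an adjusted p. At an unadjusted p under 0.05, edgeR had 1 receptor gene lower (Dop2R) and 1 higher (nAChRalpha4), against 5.43% and 3.66% of all genes, and DESeq2 had 0. The receptor genes had 19 negative and 15 positive log2 fold changes, from -0.83 for Oamb to 0.56 for Dop1R2. Their median was -0.12, against 0.02 over all tested genes. Both siTop3β libraries lay below both siControl libraries for 5 receptor genes (nAChRalpha7, Rdl, Nmdar2, Dop2R and Oamb) and above them for 3 (nAChRalpha4, GABA-B-R1 and Octbeta3R). These are 14.7% and 8.82% of the tested receptor genes, against 19.0% and 19.6% of all tested genes.

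The fit does not show that the receptor genes stayed level. The 95% interval of the fold change stayed within 2-fold in either direction for 19 of the 34 tested genes, whereas it reached a 2-fold fall for 7 and a 2-fold increase for 11. An exact permutation test of a single gene cannot go below p = 0.333 with 2 libraries against 2.

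**Figure D2:**
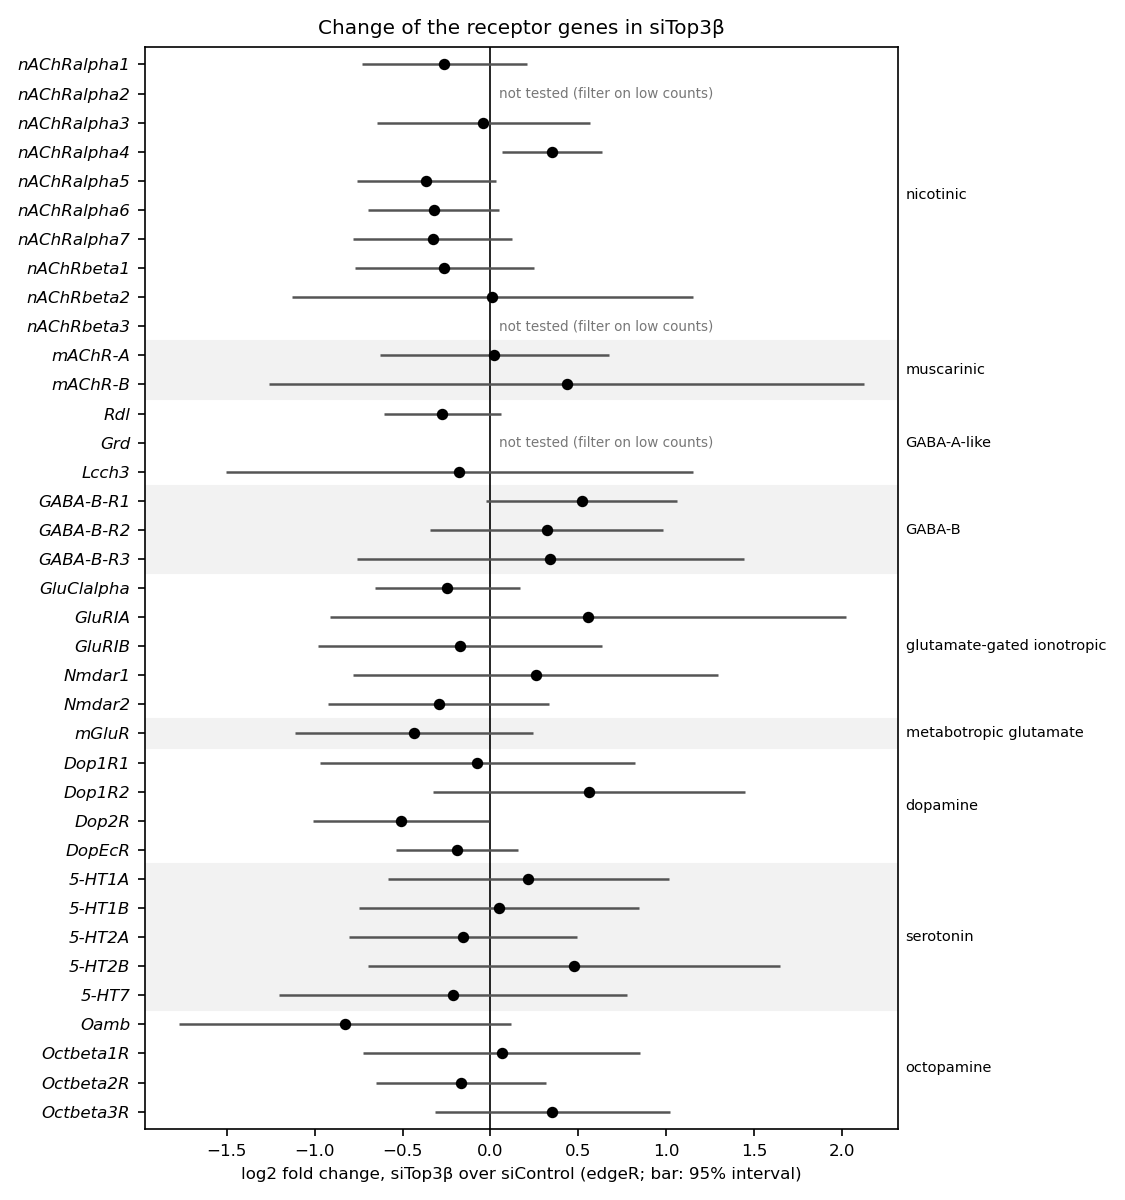
The log2 fold change of siTop3β over siControl for each receptor gene, with its 95% interval from edgeR. Values run from -0.83 for Oamb to 0.56 for Dop1R2, none of the 34 tested genes passed the adjusted threshold, and 3 genes were under the filter.

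Among the nicotinic subunits, which form cation channels opened by acetylcholine, nAChRalpha4 (FBgn0266347, chromosome 3L from 23206669 to 23287448) went the other way from most of the class. Its level was 112 and 120 CPM in siControl and 139 and 156 CPM in siTop3β, so the groups did not overlap. With means of 116 ± 5.31 and 148 ± 11.9 CPM (SD over n = 2 libraries), the log2 fold change was 0.35 (95% interval 0.06 to 0.63, edgeR adjusted p = 0.356). Its value stayed between 0.22 and 0.43 under all alternatives.

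The other subunits gave mostly negative values. nAChRalpha5 (FBgn0028875, chromosome 2L from 14040170 to 14094401) had 77.8 and 48.9 CPM in siControl and 48.5 and 50.5 in siTop3β, with siControl replicate 1 above the other 3 libraries, which were alike. This gave a log2 fold change of -0.36 (95% interval -0.76 to 0.03, edgeR adjusted p = 0.607). nAChRalpha6 (FBgn0032151, chromosome 2L from 9793317 to 9886250), the subunit on which the insecticide spinosad acts, had 73.6 and 52.4 CPM in siControl and 45.3 and 55.8 in siTop3β, so the groups overlapped. Its log2 fold change was -0.32 (95% interval -0.69 to 0.05, edgeR adjusted p = 0.657). Summed over the 9 subunits other than nAChRalpha4, the level was 263 CPM in siControl replicate 1, against 185 in siControl replicate 2 and 187 and 184 in the siTop3β libraries. The markers of neurons that use other transmitters summed to 131, 114.8, 130 and 97.2 CPM in the same order. Whether such neurons contributed to the nicotinic values was not tested, and in bulk samples fewer cells of a type and less RNA per cell cannot be told apart. Of these 9 subunits 6 were highest in siControl replicate 1. nAChRalpha1, nAChRalpha7 and nAChRbeta1 were among them, with log2 fold changes of -0.26, -0.33 and -0.26, and none of the 3 passed the test.

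nAChRalpha2 and nAChRbeta3 were under the filter. nAChRalpha2 had 9 and 5 counts in siControl and 14 and 5 in siTop3β, and nAChRbeta3 had 3 and 4 against 10 and 4. All 1532 exonic bases of nAChRbeta3 are overlapped by Ets21C on the opposite strand, which had 15 to 26 counts. Whether strand was used in counting is not given, so the reads of the 2 genes cannot be told apart. The muscarinic receptor mAChR-A (FBgn0000037, chromosome 2R from 24378630 to 24390294), which couples to calcium signalling, had 11.1 and 9.73 CPM in siControl and 13.4 and 8.01 in siTop3β, with the siTop3β libraries on both sides of the siControl values. Its log2 fold change was 0.02 (95% interval -0.63 to 0.67, edgeR adjusted p = 0.997), and its sign turned under several alternatives, to -0.38 without siTop3β replicate 1. mAChR-B, the other muscarinic receptor, had 12 and 17 counts in siControl and 32 and 4 in siTop3β.

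Rdl (FBgn0004244, chromosome 3L from 9145838 to 9182149) encodes the subunit of the GABA-gated chloride channel that confers resistance to dieldrin when mutated. It had 83.8 and 65.2 CPM in siControl and 60.4 and 63.3 in siTop3β, and the groups did not overlap, though siControl replicate 2 lay close to both siTop3β libraries. Its log2 fold change was -0.27 (95% interval -0.61 to 0.06, edgeR adjusted p = 0.690). Of the related subunits, Grd was under the filter with 6 and 8 counts in siControl and 20 and 3 in siTop3β. It shares 1118 exonic bases with CG5577, which had 4 to 15 counts, on the opposite strand. Lcch3 shares 456 exonic bases with Ranbp16, which had 583 to 765 counts, also on the opposite strand.

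The metabotropic GABA receptors, GABA-B-R1 and GABA-B-R2, act as a pair that signals through G proteins. All 3 GABA-B genes had positive values. GABA-B-R1 (FBgn0260446, chromosome 2L from 15016331 to 15034704) had 15.3 and 11.2 CPM in siControl and 17.1 and 21.1 in siTop3β, a log2 fold change of 0.52 (95% interval -0.02 to 1.06, edgeR adjusted p = 0.580). Its groups did not overlap, and siTop3β replicate 2 was the highest library. GABA-B-R2 (FBgn0027575, chromosome 3R from 21770333 to 21775840) had 7.20 and 10.6 CPM in siControl and 12.2 and 9.88 in siTop3β, so the groups overlapped, with a log2 fold change of 0.32 (95% interval -0.34 to 0.98, edgeR adjusted p = 0.859). GABA-B-R3 had 6.04 and 4.58 CPM in siControl and 11.0 and 2.67 in siTop3β, with the siTop3β libraries on both sides of the siControl values. Its log2 fold change was 0.34 (95% interval -0.76 to 1.44, edgeR adjusted p = 0.936).

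Among the glutamate receptors, GluClalpha (FBgn0024963, chromosome 3R from 19730715 to 19775231) encodes the glutamate-gated chloride channel. Of the 5 listed glutamate-gated channel subunits it had the highest siControl level, 6.23 CPM per exonic kb. Ekar, which is outside the list, had 125.8. GluClalpha had 49.2 and 33.5 CPM in siControl and 35.99 and 34.2 in siTop3β. This order was seen in several nicotinic subunits, with siControl replicate 1 high and the other 3 libraries alike. The log2 fold change was -0.25 (95% interval -0.66 to 0.17, edgeR adjusted p = 0.812). It was -0.28 without siTop3β replicate 1, and its sign turned, to 0.040, without siControl replicate 1. mGluR (FBgn0019985, chromosome 4 from 936819 to 949441), the metabotropic glutamate receptor, had 15.6 and 9.16 CPM in siControl and 11.6 and 6.94 in siTop3β, with overlapping groups and a log2 fold change of -0.44 (95% interval -1.11 to 0.24, edgeR adjusted p = 0.788). Its value was -0.02 without siControl replicate 1 and -0.85 without siTop3β replicate 1. The AMPA-type subunits GluRIA and GluRIB and the NMDA-type subunits Nmdar1 and Nmdar2 had log2 fold changes between -0.29 and 0.56, none of which passed. Nmdar2 lies within inc, which had 261 to 378 counts, on the opposite strand, and shares no exonic bases with it.

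Dopamine receptors of the D1 type raise cAMP and Dop2R, of the D2 type, lowers it. DopEcR had 1028 and 1033 CPM in siControl and 716 and 1088 in siTop3β, so siTop3β replicate 1 alone was low and the siTop3β mean of 902 ± 263 CPM (SD, n = 2) carried a wide error. The log2 fold change was -0.19 (95% interval -0.54 to 0.16, edgeR adjusted p = 0.830). Without siTop3β replicate 2, which leaves siTop3β replicate 1 as the only library of its group, DopEcR had a log2 fold change of -0.56 and an edgeR adjusted p of 0.00339, with 2.11% of all genes called lower in that fit. Without siTop3β replicate 1 its log2 fold change was 0.08, so its direction turned when that library was left out. Photoreceptor markers were also lowest there, at 61494 CPM, against 68216 to 70255 CPM in the other 3 libraries, and their part in the value of DopEcR was not tested.

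Dop2R (FBgn0053517, chromosome X from 20004680 to 20062706) had 21.8 and 23.5 CPM in siControl and 17.7 and 14.2 in siTop3β, and its groups did not overlap. Its log2 fold change was -0.51 (95% interval -1.01 to -0.01, edgeR adjusted p = 0.536), and over the alternatives it ran from -0.67 to -0.39. The D1-type receptor Dop1R2 (FBgn0266137, chromosome 3R from 29630304 to 29659984) had 4.64 and 6.87 CPM in siControl and 12.2 and 4.81 in siTop3β, with siTop3β replicate 1 above the other 3. The log2 fold change of 0.56 (95% interval -0.32 to 1.45, edgeR adjusted p = 0.788) became -0.24 without that library. Dop1R1, the other D1-type receptor, had 32.5 and 23.8 CPM in siControl and 38.0 and 16.0 in siTop3β, so the siTop3β libraries bracketed the siControl ones.

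Octopamine, the insect counterpart of noradrenaline, acts through Oamb, which raises calcium, and through the Octbeta receptors, which raise cAMP. Oamb (FBgn0024944, chromosome 3R from 20689018 to 20714577) had 8.36 and 6.01 CPM in siControl and 5.51 and 2.67 in siTop3β, and the groups did not overlap. Its log2 fold change, -0.83 (95% interval -1.77 to 0.12, edgeR adjusted p = 0.652), was the most negative of the set with all 4 libraries. It was -1.43 without siTop3β replicate 1 and -0.43 without siTop3β replicate 2. Octbeta3R (FBgn0250910, chromosome 3R from 12511570 to 12548229) had 8.82 and 7.73 CPM in siControl and 12.2 and 9.08 in siTop3β, with both siTop3β libraries higher and a log2 fold change of 0.35 (95% interval -0.32 to 1.02, edgeR adjusted p = 0.847). Octbeta2R (FBgn0038063, chromosome 3R from 12550625 to 12595725) led its class per exonic kb and had 23.9 and 21.2 CPM in siControl and 22.6 and 17.6 in siTop3β, which overlapped. The fit gave a log2 fold change of -0.17 (95% interval -0.65 to 0.31, edgeR adjusted p = 0.927).

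Summed over the 5 serotonin receptor genes, the level was 34.1 to 35.5 CPM in siControl and 46.4 and 25.4 CPM in siTop3β. 5-HT2A (FBgn0087012, chromosome 3R from 4612870 to 4633304), which signals through calcium, had 8.59 and 14.0 CPM in siControl and 10.7 and 9.35 in siTop3β, a log2 fold change of -0.16 (95% interval -0.81 to 0.49, edgeR adjusted p = 0.959). The siTop3β values lay between the siControl values. The log2 fold change was -0.26 without siTop3β replicate 1, and its sign turned, to 0.20, without siControl replicate 2. Log2 fold changes of the other serotonin receptors ran from -0.21 for 5-HT7 to 0.47 for 5-HT2B.

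How the receptor genes ranked across libraries depended on their level. Of all 37 genes, 20 were highest in siTop3β replicate 1 and 23 lowest in siTop3β replicate 2. Among the tested receptor genes these were 50% and 61.8%, against 28.8% and 25.0% of all tested genes, and 35.3% were highest in siControl replicate 1, against 21.2%. The median ratio of siTop3β replicate 1 to replicate 2 was 1.496 over the tested receptor genes and 1.00 over all tested genes. The 19 receptor genes with a siControl mean under 10 CPM held 18 of the 20 that were highest in siTop3β replicate 1. Of the 16 among them that were tested, 93.8% were highest there, against 46.9% of the 2975 tested genes at such levels. Among the 18 receptor genes at or above 10 CPM, 2 were highest in siTop3β replicate 1, and 11 were highest in siControl replicate 1. The share of all tested genes at or above 10 CPM was not computed. Over all tested genes, too, the share highest in siTop3β replicate 1 was larger under 10 CPM (46.9%) than at any level (28.8%).

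**Figure D3:**
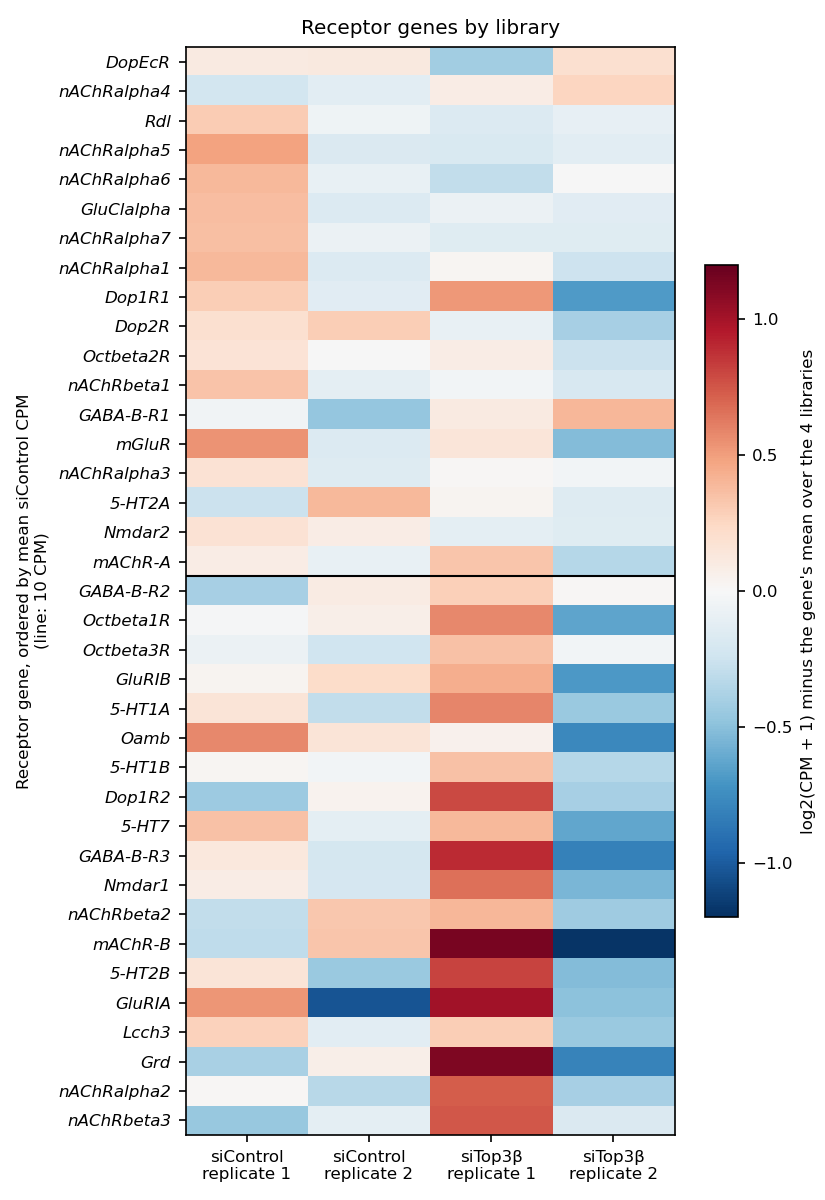
Level of each receptor gene in each library, as log2(CPM + 1) minus the mean of the gene over the 4 libraries, with genes ordered by siControl mean and a line at 10 CPM. Below the line 18 of 19 genes are highest in siTop3β replicate 1, and above it 11 of 18 are highest in siControl replicate 1.

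Counts on otherwise silent genes came to 2.37 per exonic kb in siTop3β replicate 1, against 0.152 to 0.277 in the other libraries, each over its own set of genes. At that rate the exons of a receptor gene would hold from 0.412% (DopEcR) and 2.99% (nAChRalpha4) to 69.0% (Oamb) of its counts in that library. The median was 35.7% for receptor genes under 10 CPM and 22.7% for those at or above it. The part of these counts in the differences between groups was not tested. The 95% interval of the log2 fold change had a median width of 1.93 under 10 CPM and 0.98 at or above it.

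With siTop3β replicate 1 left out the median log2 fold change of the 34 tested receptor genes was -0.39, and that of all tested genes was -0.01. With siTop3β replicate 2 left out these medians were 0.30 and 0.05. That fit tested 37 receptor genes, adding nAChRalpha2, nAChRbeta3 and Grd, which had 14, 10 and 20 counts in siTop3β replicate 1. Without siControl replicate 1 the receptor median was 0.04, and without siControl replicate 2 it was -0.09, each over 37 tested receptor genes. The sign of the receptor median thus depended on which library was left out, and these fits did not all test the same receptor genes.

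**Figure D4:**
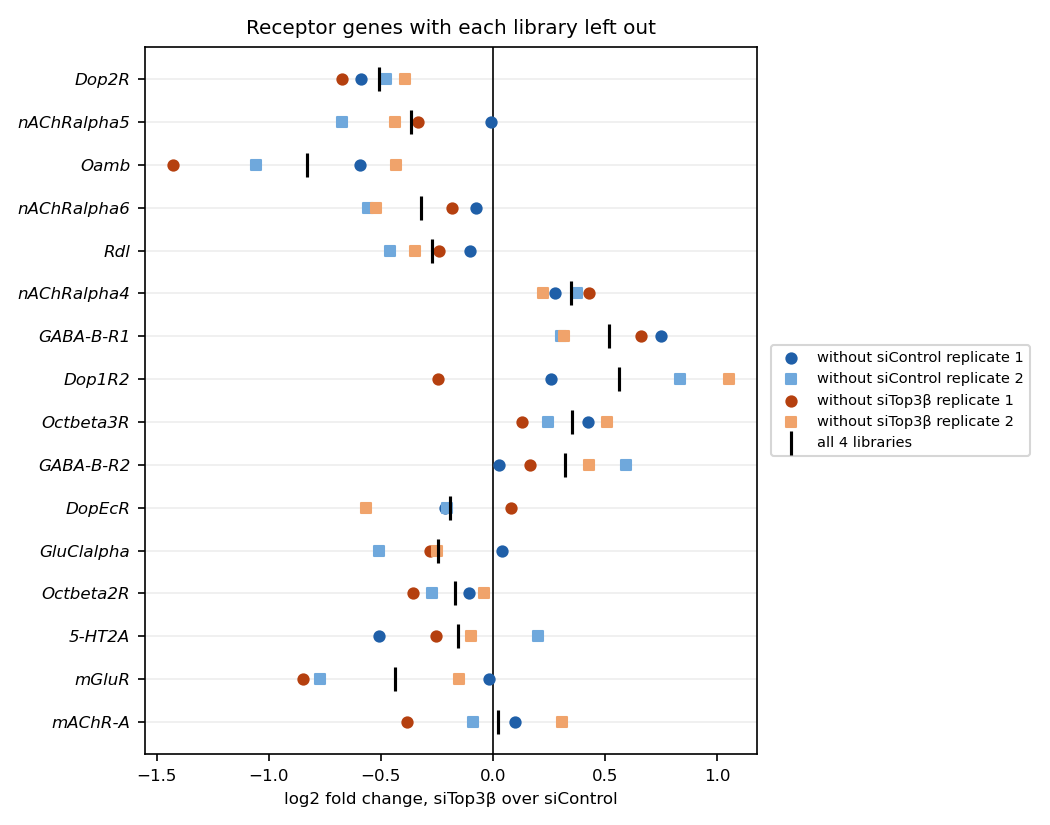
The log2 fold change of 16 named receptor genes with all 4 libraries (vertical mark) and with each library left out in turn (points). DopEcR runs from -0.56 without siTop3β replicate 2 to 0.08 without siTop3β replicate 1, while all points of nAChRalpha4 lie above 0.

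Genes that act beside the receptors were examined as fixed lists, and none was called. Of 21 other receptor genes 7 were tested, with 4 negative and 3 positive values. Per exonic kb the highest of them were Ekar, a kainate-type glutamate receptor subunit, and pHCl-1, a chloride channel gated by pH. Ekar had 369 and 379 CPM in siControl and 292 and 362 in siTop3β, a log2 fold change of -0.19. pHCl-1 had 537 and 591 CPM in siControl and 432 and 509 in siTop3β, with both siTop3β libraries lower, and its log2 fold change was -0.26 (edgeR adjusted p = 0.623).

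Of 27 genes for G proteins and cAMP signalling 26 were tested, with 15 negative and 11 positive values and a median of -0.11. norpA, the phospholipase C of phototransduction, and Ggamma30A, a G protein gamma subunit, were the highest per exonic kb and had log2 fold changes of -0.10 and -0.08. The smallest adjusted p of the list was 0.0606, for Pka-R2, a regulatory subunit of the cAMP-dependent kinase, which had 347 and 369 CPM in siControl and 234 and 268 in siTop3β. Of 18 genes for transmitter synthesis, vesicle loading and clearance 15 were tested, 10 with negative values. The highest per exonic kb, Eaat2, of the excitatory amino acid transporter family, and Ace, the acetylcholinesterase, had log2 fold changes of 0.14 and -0.31, and Ace had an edgeR adjusted p of 0.434. qvr, which encodes a membrane-anchored protein that also regulates nicotinic receptors, had a log2 fold change of -0.10.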

How the data were processed

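Reads were trimmed (Trimmomatic) and mapped to dm6 (STAR) by the authors, and the deposited values are raw counts per gene, without normalization. The counting tool, annotation, and treatment of introns, strand and multiple alignments are not given in the sources used here. The study itself used DESeq2. These counts were analysed with edgeR 4.0.16 under R 4.3.3, using TMM, filterByExpr and the robust quasi-likelihood test on group alone, with Benjamini-Hochberg adjustment over the 7029 genes tested and a threshold of 0.05. Standard errors and 95% intervals came from the test statistic. DESeq2 1.42.0 gave an alternative. Symbols, coordinates and exonic lengths came from Ensembl release 115, which held 13866 of 13929 gene identifiers.

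Library totals were 4267208 and 3615880 counts in siControl and 3239201 and 3965125 in siTop3β, and replicates differed by more than sampling noise (chi-square per degree of freedom 4.48 and 5.28). The floor of 3 counts covers counting error only.

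The receptor genes and lists were chosen with earlier results of these data known. Full values are given for the 5 tested receptor genes of smallest p on either side, for the highest of each class per exonic kb, and for the 2 highest of each list. Pka-R2, and the other receptor genes beyond this rule, were named after their values were seen. Normalization, filter, test, threshold, block and single libraries were varied. Sequences were not used here.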

Additional observations from a re-analysis of the deposited data

How the results depend on the processing

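The number of genes called over the whole table, 85, was 138 with at least 10 counts in every library, 51 with the DESeq2 Wald test, 134 at an adjusted p under 0.1, and between 52 (without siControl replicate 1) and 424 (without siTop3β replicate 2) with a library left out, where the lone library of a group is assumed to vary like the others. It was 131 without siTop3β replicate 1. Libraries that share a replicate number deviated from their group means with a correlation of -0.12, and nothing in the sources pairs them. The replicate block gave 60 calls, and the crossed pairing, an alternative added once the data had been seen, gave 211. Neither block called a receptor gene. Receptor genes called lower numbered 0 under every alternative but 1, the fit without siTop3β replicate 2, which called DopEcR, and those called higher numbered 0 under all. The median log2 fold change of the receptor genes ran from -0.39 to 0.30 with a library left out, over 34 to 37 tested receptor genes. The DopEcR level over the next of the 37 genes went from 12.5 to 25.7 times per kb of span.

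Of 192 alternative values of the 16 named receptor genes, 179 kept their direction and side of the threshold, 3 kept their direction but had no adjusted p (Oamb, Dop1R2 and Octbeta3R in DESeq2), 1 passed the threshold (DopEcR) and 9 changed sign. Over the fits that lack a single library, the log2 fold change of Dop1R2 ran from -0.24 to 1.06, that of DopEcR from -0.56 to 0.080, that of GluClalpha from -0.51 to 0.040, that of 5-HT2A from -0.51 to 0.20 and that of mAChR-A from -0.38 to 0.31. Values that kept their sign also moved, from -0.67 to -0.01 for nAChRalpha5, from -0.56 to -0.07 for nAChRalpha6, from -0.85 to -0.02 for mGluR, from -1.43 to -0.43 for Oamb and from 0.03 to 0.59 for GABA-B-R2. The value of mAChR-A was also negative with no filter (-0.027), with the DESeq2 Wald test (-0.040) and under the crossed pairing (-0.0037). The causes were not tested. The median of all genes lay at 0.21 with no filter and 0.19 with DESeq2, against 0.02 in the main fit. Both of these alternatives included genes that the main filter removes. Fold changes there are relative to the scaling of the libraries, not to that median. Receptor genes under 10 CPM had a median 95% interval width of 1.93 on the log2 scale, and depth was not varied.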

Other observations

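The receptor genes were long. Their median span was 24.2 kb, from 1.97 to 92.9 kb, against 3.54 kb over the tested genes, and 8 of the 37 (21.6%) were longer than 50 kb, against 4.09% of the tested genes. These 8 had a median log2 fold change of -0.15, with 5 negative values. The 286 tested genes of that length had a median of -0.18, and 6.29% of them were called lower. nAChRalpha4, with a span of 80.8 kb, had a positive value, and nAChRalpha6, the longest of the set, a negative one. Across the 34 tested receptor genes, which share the same libraries, the Spearman rho of log2 fold change with span was -0.177.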
